A study of Mus musculus with 7 samples.

Results

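The START domain is a protein fold with a deep pocket that holds a single lipid molecule, and proteins that carry it move phospholipids, sterols or ceramide between membranes through the cytosol. *Pctp*, the phosphatidylcholine transfer protein, is a member made of little more than this domain and is abundant in liver, where phosphatidylcholine is needed for membranes, lipoproteins and bile. Other members carry sterols, and some join the START domain to an enzyme or to another domain. The genes described here are *Pctp*, *Star*, *Stard3*, *Stard4*, *Stard5*, *Stard7*, *Stard8*, *Stard10*, *Stard13* and *Acot12*, 10 of 19938 genes measured on the arrays. Each of the 10 had a single probe set, the group of probes on the array that reads a gene. The family was chosen by the decrease of *Pctp* on these same arrays, so the difference of *Pctp* is given as a description without a test. The question for the rest was whether *Pctp* fell alone within its family.

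Primary hepatocytes from male C57BL/6J mice were isolated with collagenase and a Percoll gradient, cultured with insulin and dexamethasone, and transfected with 1 µg of a miR-709 mimic (4 replicates, A to D) or with 1 µg of Cel-239b, a worm miRNA that served as control (3 replicates, B to D). Total RNA was taken 24 h later, and each replicate was hybridised to 1 Affymetrix Mouse Gene 1.0 ST array. Neither the labels nor the methods say whether replicates came from separate mice or isolations, and the p-values therefore cover array-to-array spread alone, which may be technical. Both groups passed through transfection, and no untransfected cells were measured.

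All values are log2 signals after RMA, a procedure that corrects background, equalises the arrays and merges the probes of a probe set, so a difference of 1 is a 2-fold change. The hepatocyte markers *Alb*, *Apoa1* and *Ttr* did not pass the test, while 3 of 8 measured hepatocyte markers rose with miR-709, among them *Hnf4a*, a transcription factor of hepatocytes (log2 difference 0.57). Over all genes, limma called 1.47% lower and 1.81% higher at an adjusted p under 0.05, and 15.0% had an unadjusted p under 0.05, the shares against which this and the later counts stand. The mean of 9 endothelial markers was 4.67 to 4.74 on the miR-709 arrays and 4.63 to 4.73 on the Cel-239b arrays, and that of 9 Kupffer cell and leukocyte markers was 4.73 to 4.81 on the miR-709 arrays and 4.71 to 4.77 on the Cel-239b arrays. Limma called 0 of either list, with 1 and 0 at an unadjusted p under 0.05. The log2 signal averaged over 5 in only 5 of the 9 endothelial and 2 of the 9 Kupffer cell and leukocyte markers. The means of both lists lay below the median of all probe sets, where a change may not be seen. These means and counts therefore say little about the amount of such cells. Of 10 stellate cell and myofibroblast markers 2 were lower (*Acta2*, log2 difference -1.34, and *Vim*, -0.40), against 1.47% of all genes, with 3 at an unadjusted p under 0.05 and means of 5.77 to 5.85 on the miR-709 arrays and 5.98 to 6.02 on the Cel-239b arrays. Of 6 cholangiocyte markers 1 was lower (*Krt19*, -1.23), against the same 1.47%, with 3 at an unadjusted p under 0.05 and means of 5.40 to 5.62 on the miR-709 arrays and 5.80 to 5.85 on the Cel-239b arrays. In RNA from a whole culture, fewer cells of a type and less RNA per cell cannot be told apart. miR-709 replicates C and D stood apart in interferon response genes, whose mean, relative to the Cel-239b mean, was 1.11 on C and 1.10 on D, against -0.13 on A and -0.05 on B. The part of these shifts in the results below was not tested.

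*Pctp* had a log2 signal of 5.58, 6.04, 5.73 and 5.60 on miR-709 replicates A to D, against 7.25, 7.46 and 7.53 on Cel-239b replicates B to D. The highest miR-709 array, B, lay more than 1 log2 unit below the lowest Cel-239b array, so the treatments did not overlap. The mean was 5.74 ± 0.21 (SD, n = 4) with miR-709 and 7.41 ± 0.15 (SD, n = 3) with Cel-239b. The log2 difference was -1.68 (standard error 0.12), and only 8 of the 19938 genes had a larger decrease. Leaving out replicates C and D, which had the higher interferon genes, gave a difference of -1.60, and leaving out single arrays gave -1.78 to -1.62.

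**Figure D1:**
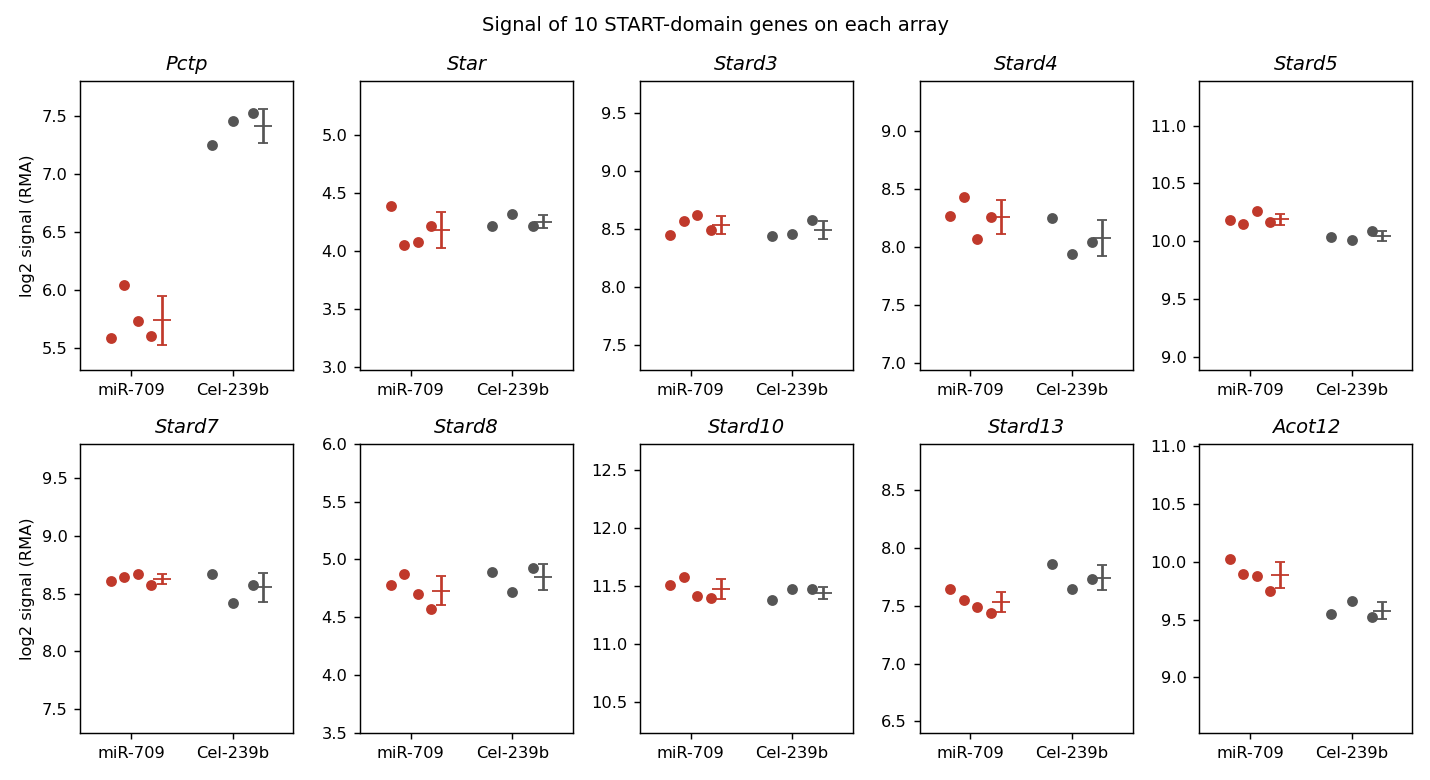
Log2 signal (RMA) of the 10 START-domain genes, by array, in hepatocytes given miR-709 (red, replicates A to D, n = 4) or Cel-239b (grey, replicates B to D, n = 3), with the mean and SD to the right of the points. Every panel spans the same number of log2 units and no axis starts at 0. *Pctp* sits at 5.58 to 6.04 with miR-709 and 7.25 to 7.53 with Cel-239b, and no other panel shows a gap of this size.

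*Stard10* and *Stard7* are the members closest to *Pctp* in cargo. *Stard10*, which carries phosphatidylcholine and phosphatidylethanolamine, read 11.51, 11.58, 11.41 and 11.40 with miR-709, against 11.38, 11.47 and 11.47 with Cel-239b. The arrays of both treatments were interleaved, and the log2 difference was 0.04 (95% interval -0.11 to 0.18, adjusted p = 0.857 from limma). *Stard7*, which brings phosphatidylcholine to mitochondria, read 8.61, 8.64, 8.67 and 8.57 with miR-709, against 8.67, 8.42 and 8.57 with Cel-239b. All 4 miR-709 arrays lay within the range of the control arrays (log2 difference 0.07, interval -0.09 to 0.23, adjusted p = 0.703). For both genes the lower end of the interval is far from the -1.68 of *Pctp*.

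The 4 sterol-binding members did not pass the test either. *Star*, which delivers cholesterol to the inner mitochondrial membrane in steroid-making cells, read 4.39, 4.05, 4.08 and 4.22 with miR-709, against 4.22, 4.32 and 4.22 with Cel-239b. It lay below the median of all probe sets on each of the 7 arrays, where a change may not be seen (log2 difference -0.07, interval -0.26 to 0.13, adjusted p = 0.778). *Stard3*, a sterol-binding protein of late endosomes, read 8.45, 8.57, 8.62 and 8.49 with miR-709, against 8.44, 8.46 and 8.58 with Cel-239b, and had the closest means of this group (log2 difference 0.04, interval -0.11 to 0.19, adjusted p = 0.840). *Stard4*, a soluble sterol carrier whose gene responds to SREBP2, the regulator of cholesterol synthesis, read 8.27, 8.43, 8.07 and 8.26 with miR-709. It read 8.25, 7.94 and 8.04 with Cel-239b, so that 3 miR-709 arrays were above all controls and replicate C lay within the control range. The log2 difference was 0.18 (interval -0.04 to 0.40, adjusted p = 0.439). *Stard5*, a cytosolic protein that binds sterols and bile acids, read 10.18, 10.15, 10.26 and 10.17 with miR-709, against 10.04, 10.01 and 10.09 with Cel-239b. Its arrays did not overlap, with those of miR-709 higher, yet the shift was small and missed the threshold over all genes (log2 difference 0.14, interval 0.02 to 0.27, adjusted p = 0.260).

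*Stard8* and *Stard13* encode large proteins of a common subgroup in which the START domain follows other domains. *Stard13* read 7.64, 7.55, 7.49 and 7.44 with miR-709, against 7.86, 7.64 and 7.73 with Cel-239b. Its miR-709 replicates B, C and D lay below all controls and A tied with the lowest control, Cel-239b replicate C. The log2 difference of -0.21 was the largest decrease among the 9 members beside *Pctp* (interval -0.38 to -0.05) and did not pass the test (adjusted p = 0.201). *Stard8*, which read 4.78, 4.87, 4.70 and 4.57 with miR-709 and 4.89, 4.72 and 4.93 with Cel-239b, was below the median probe set on all 7 arrays. Its treatments overlapped, and the log2 difference was -0.12 (interval -0.31 to 0.07, adjusted p = 0.577).

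*Acot12*, which joins a START domain to an enzyme that splits acetyl-CoA in the liver cytosol, had the largest shift of the 9, with the opposite sign to *Pctp*. It read 10.02, 9.89, 9.88 and 9.75 with miR-709, against 9.55, 9.66 and 9.52 with Cel-239b. The treatments did not overlap, and the means were 9.89 ± 0.11 (SD, n = 4) with miR-709 and 9.58 ± 0.07 (SD, n = 3) with Cel-239b. The log2 difference was 0.31 (standard error 0.07, interval 0.14 to 0.47), a 1.24-fold higher signal, with adjusted p = 0.0618 from limma. It passed where dim genes were left out before the adjustment (adjusted p = 0.0327 over genes whose log2 signal averaged 5 or more), with 0.0243 to 0.202 over all alternatives.

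Beside *Pctp*, limma called 0 of the 9 members lower and 0 higher at an adjusted p under 0.05, against 1.47% and 1.81% of all genes. Their log2 differences ran from -0.21 to 0.31 with a median of 0.04, where the median over all genes was 0.01. An unadjusted p under 0.05 was reached by 3 of the 9, namely *Stard13*, *Stard5* and *Acot12*, against 15.0% of all genes, and the methods' t-test (the 1-way analysis of variance of the study, here for 2 groups) called 0 after adjustment, against 1.13% of all genes. Arrays did not overlap between treatments in 2 of the 9, both higher with miR-709, against 12.3% of all genes in either direction. The lowest limit of any 95% interval among the 9 was -0.38, that of *Stard13*, so for none of them did the interval hold a decrease near that of *Pctp*. A missed threshold does not show that a gene was unchanged, and the intervals leave room for shifts up to these limits. *Star* and *Stard8* lay below the median probe set on all 7 arrays, where a change may not be seen. Their intervals therefore say little about a fall like that of *Pctp*.

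**Figure D2:**
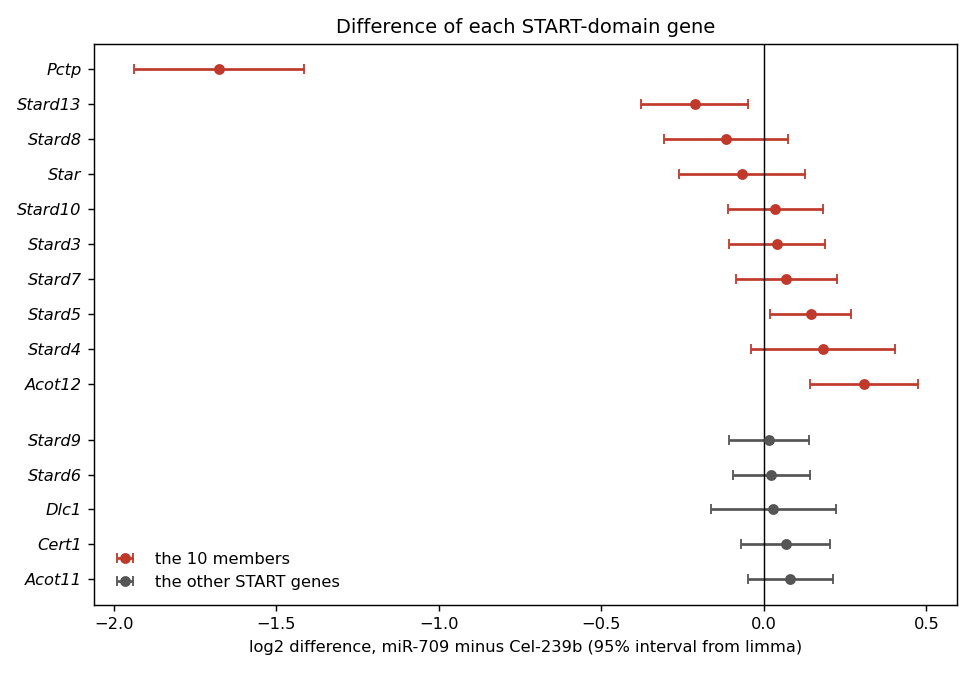
Log2 difference of each START-domain gene, miR-709 (n = 4) minus Cel-239b (n = 3), with its 95% interval from limma, for the 10 members (red) and for the rest of the START family (grey). *Pctp* stands at -1.68, and the other points lie between -0.21 and 0.31. The interval of *Pctp* comes from the contrast that chose it, so it is a description and no test.

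Another 5 mouse genes with a START domain, which were not among the 10, were measured as well, and 0 of 5 passed the test (0 at an unadjusted p under 0.05, against 15.0% of all genes, and 0 by the methods' t-test). Over all genes limma called 1.47% lower and 1.81% higher, so 0 of 5 is near the background. *Cert1*, the ceramide carrier between endoplasmic reticulum and Golgi, read 8.92, 8.99, 8.96 and 8.89 with miR-709, against 8.95, 8.88 and 8.79 with Cel-239b. Its log2 difference was 0.07 (interval -0.07 to 0.20, adjusted p = 0.670). *Dlc1*, a relative of *Stard8* and *Stard13*, read 8.06, 8.10, 7.78 and 7.83 with miR-709, against 7.93, 7.90 and 7.91 with Cel-239b. Replicates A and B were above all controls and C and D below them (log2 difference 0.03, interval -0.16 to 0.22, adjusted p = 0.915). The interferon genes split the same arrays in the opposite direction, and a link was not tested. A dimmer probe set of *Dlc1* did not show this order. It read 4.03, 4.06, 4.26 and 4.18 with miR-709, against 4.28, 4.32 and 4.18 with Cel-239b. *Acot11*, a thioesterase with a START domain, had a difference of 0.08. *Stard6*, known from male germ cells, and *Stard9*, a kinesin with a START domain, each had 0.02. Dimmer probe sets of *Stard9* had -0.13 and -0.06 (adjusted p = 0.665 and 0.777 from limma over all probe sets). *Stard6* was near the bottom of the scale at 3.13 to 3.21 with miR-709 and 3.13 with Cel-239b.

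Lipids also move by carriers outside the START family, and 53 genes of 7 other families were measured. None was called lower, against 1.47% of all genes, and 2 were called higher with miR-709, against 1.81%. The 2 were 1 of 9 SEC14-like and tocopherol transfer genes and 1 of 12 of the oxysterol-binding family. An unadjusted p under 0.05 was reached by 12 of the 53, against 15.0% of all genes, and the methods' t-test called 2 after adjustment, against 1.13%. Their median log2 difference was 0.03. *Ttpa*, the alpha-tocopherol (vitamin E) transfer protein of hepatocytes, read 8.83, 8.87, 8.71 and 8.61 with miR-709, against 8.05, 8.08 and 7.97 with Cel-239b. It rose by 0.72 on the log2 scale (standard error 0.07, adjusted p = 8.6e-04). *Osbpl1a*, an oxysterol-binding relative found on endosomes, read 7.20, 7.25, 7.30 and 7.16 with miR-709, against 6.83, 6.63 and 6.78 with Cel-239b, and rose by 0.48 (standard error 0.07, adjusted p = 0.00497). For both genes all miR-709 arrays lay above all control arrays. Without replicates C and D together, *Osbpl1a* lost its call (adjusted p = 0.0789) at a log2 difference that was still 0.48.

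Near the threshold were *Cptp*, a carrier of ceramide-1-phosphate, and *Scp2*, the sterol carrier protein of peroxisomes. *Cptp* read 7.80, 7.86, 7.58 and 7.91 with miR-709, against 7.28, 7.08 and 7.53 with Cel-239b (log2 difference 0.49, adjusted p = 0.0523). It passed in 8 of 20 alternatives. The adjusted p was 0.0476 with limma-trend, 0.0255 and 0.0195 with the filters on dim genes and 0.0462 after a further quantile normalization. It was 0.0448 with array weights, 0.0325 with the replicate block, 0.0489 without miR-709 replicate C and 0.0297 without Cel-239b replicate D. *Cptp* missed the threshold in the other 12, with an adjusted p of up to 0.268, from the methods' t-test. *Scp2* had a log2 difference of 0.25 (adjusted p = 0.0726). It passed in 3 of 20 alternatives, with limma-trend (0.0459) and with the filters on dim genes (0.0406 and 0.0301). *Scp2* missed the threshold in the other 17, with an adjusted p of up to 0.204, from the fixed replicate block. The most negative values among the 53 were those of *Prelid2*, of a family that shuttles phospholipids within mitochondria (-0.37, adjusted p = 0.252), and *Vps13d*, a bridge-like carrier (-0.27, adjusted p = 0.349). The value of *Vps13d* rests on its brightest probe set, and with averaged probe sets it was -0.09 (adjusted p = 0.694 from limma). Of the phosphatidylinositol transfer proteins, the glycolipid transfer proteins, the sterol carrier, Niemann-Pick C and Aster group, the PRELI-like proteins and the bridge-type proteins, limma called 0 in each, with 0, 2, 2, 1 and 0 at an unadjusted p under 0.05 and 0 by the methods' t-test. These lists hold 4 to 11 measured genes each, and the shares over all genes were 1.47% lower, 1.81% higher and 15.0% at an unadjusted p under 0.05.

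**Figure D3:**
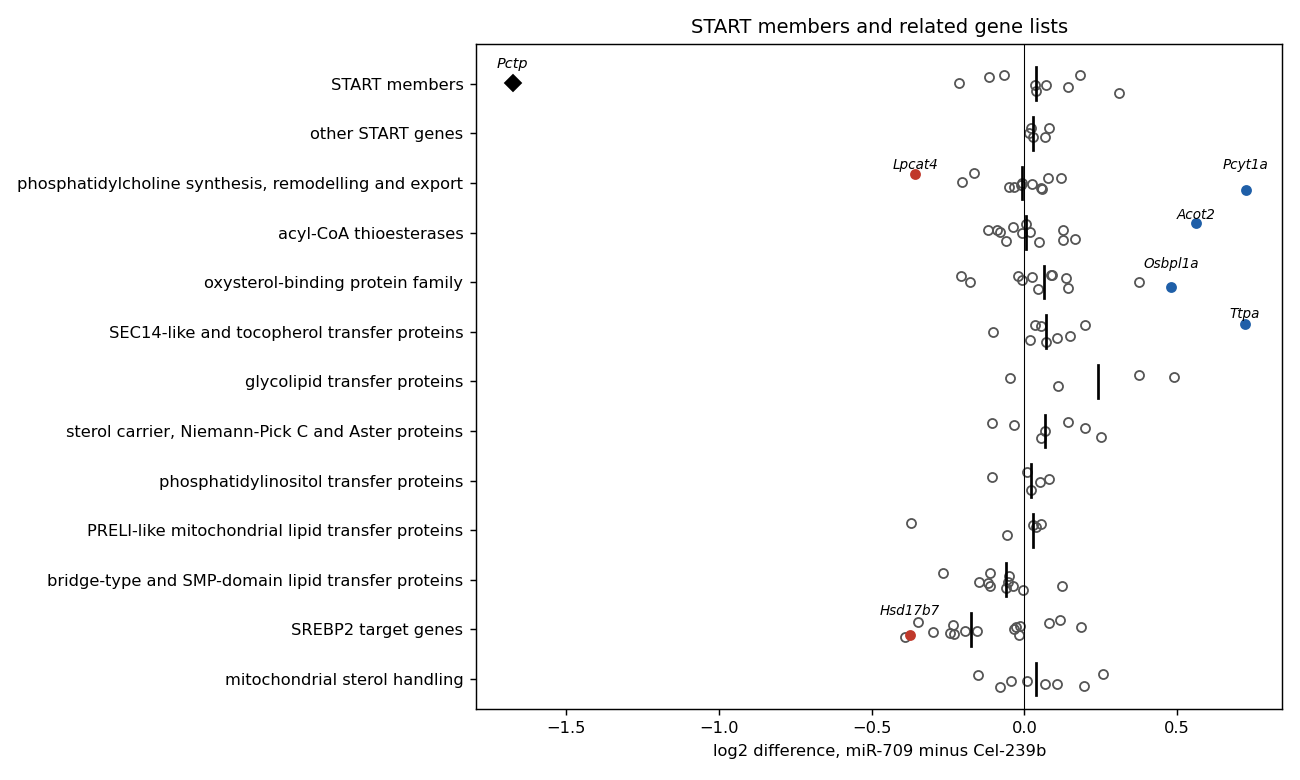
Log2 difference, miR-709 (n = 4) minus Cel-239b (n = 3), of the START members and of 12 related gene lists. Each point is a gene, filled and named when limma called it (red lower, blue higher), and the black bar is the median of a list. *Pctp* is the black diamond, given without a test and left out of its median. *Pctp* at -1.68 lies outside the range of every list shown, whose lowest value is -0.39.

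Genes that make, remodel and export phosphatidylcholine, the cargo of *Pctp*, were looked at next. Of 13 measured, 1 rose and 1 fell, against 1.81% and 1.47% of all genes, and 11 missed the threshold. An unadjusted p under 0.05 was reached by 3 of the 13, against 15.0% of all genes. *Pcyt1a*, the rate-limiting enzyme of the CDP-choline pathway, read 9.34, 9.37, 9.25 and 9.22 with miR-709, against 8.56, 8.34 and 8.81 with Cel-239b. All of its miR-709 arrays were above the controls, and it rose by 0.73 on the log2 scale (standard error 0.10, adjusted p = 0.00504). *Lpcat4*, an acyltransferase that rebuilds phospholipids from their lyso forms, read 5.83, 5.75, 5.96 and 5.92 with miR-709, against 6.11, 6.25 and 6.31 with Cel-239b. It fell by 0.36 (standard error 0.07, adjusted p = 0.0315). The call of *Lpcat4* was lost without miR-709 replicate A (0.0938), B (0.0873) or D (0.0740) and without Cel-239b replicate C (0.135) or D (0.0925), and with the methods' t-test (0.148). *Pcyt1a* lost its call with that test too (0.0898) and without miR-709 replicates C and D together (0.0868), where its log2 difference was 0.79. *Pemt*, which makes phosphatidylcholine by methylation in liver, had a log2 difference of 0.12 (adjusted p = 0.689).

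*Pctp* binds a thioesterase, *Acot13*, and *Acot12* is itself one, so the acyl-CoA thioesterases were read as a list. Of 13 measured, 1 was higher and 0 were lower, against 1.81% and 1.47% of all genes, and 12 did not pass. The 1 was also the single gene of the 13 with an unadjusted p under 0.05, against 15.0% of all genes. *Acot2*, a mitochondrial thioesterase, read 10.30, 10.52, 10.36 and 10.53 with miR-709, against 9.84, 9.87 and 9.89 with Cel-239b. Its log2 difference was 0.56 (standard error 0.07, adjusted p = 0.00277), and its close paralog *Acot1*, with which a probe set could share transcripts, had 0.17 (adjusted p = 0.645). Without miR-709 replicates C and D together *Acot2* lost its call (adjusted p = 0.0606) with a log2 difference of 0.54. *Acot13* had a log2 difference of -0.01 with a standard error of 0.07 (adjusted p = 0.973), and its means were 8.80 with miR-709 and 8.81 with Cel-239b.

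For *Stard4* the fitting neighbours are the SREBP2 targets. Of 16 measured, 1 fell (0 by the methods' t-test) and 0 rose, against 1.47% and 1.81% of all genes, and 15 missed the threshold. An unadjusted p under 0.05 was reached by 8 of the 16, against 15.0% of all genes. Their median was -0.18, and 13 of the 16 were below 0, against 45.4% of all genes. Their mean, relative to the Cel-239b mean, was -0.29 on C and -0.21 on D, the arrays with higher interferon genes, against 0.01 on A and -0.06 on B. Among the miR-709 arrays *Stard4* was lowest on C, at 8.07, while D, at 8.26, was level with A, at 8.27. *Hsd17b7*, an enzyme of cholesterol synthesis, read 9.73, 9.69, 9.47 and 9.58 with miR-709, against 9.95, 9.91 and 10.12 with Cel-239b (log2 difference -0.38, standard error 0.08, adjusted p = 0.0397). Its arrays did not overlap between treatments, yet its call was lost when each single array was left out in turn, with adjusted p of 0.0525 without miR-709 replicate A, 0.0768 without B, 0.0999 without C and 0.123 without D, and of 0.103 without Cel-239b replicate B, 0.0883 without C and 0.106 without D. *Idi1* (-0.39, adjusted p = 0.101) and *Mvd* (-0.35, adjusted p = 0.224), both of the mevalonate pathway, did not pass. In the alternatives *Idi1* passed with the filter that kept genes averaging 6 or more (adjusted p = 0.0411 from limma). It also passed with the fixed replicate block (0.0403), where *Hsd17b7* did not (0.0645).

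Beside *Star*, 8 genes listed for mitochondrial sterol handling were measured. Limma called 0 of them, against 1.47% of all genes lower and 1.81% higher, and the methods' t-test called 0. An unadjusted p under 0.05 was reached by 3, against 15.0% of all genes. The largest difference in this list was that of *Cyp7b1* (0.26, adjusted p = 0.301), an oxysterol hydroxylase of the endoplasmic reticulum and not of mitochondria.

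The genes closest in profile to *Pctp* are given as a description. Likeness was taken as the root mean square difference between the log2 profiles of a pair of genes over the 7 arrays, each relative to its own Cel-239b mean, among 10969 genes whose log2 signal averaged 5 or more. The 5 closest genes were *Ces1g*, a carboxylesterase (0.13), *Dync1li1*, a dynein subunit (0.14), *Bpnt1*, a phosphatase of sulfur nucleotides (0.16), *Nprl3*, a subunit of a complex that restrains mTORC1 (0.18), and *Slc35e1*, of a nucleotide sugar transporter family (0.20). *Ces1g* read 6.07, 6.16, 5.82 and 5.70 with miR-709, against 7.49, 7.59 and 7.80 with Cel-239b, with its lowest values on C and D where *Pctp* had its lowest on A and D. Among the other 9 members the distance to *Pctp* ran from 1.12 for *Stard13* to 1.51 for *Acot12*. A short distance reflects mainly a decrease of the same size with miR-709, which *Pctp* was chosen for. That no other START gene was among the 5 therefore follows from the differences given above and adds nothing to them. *Star*, *Stard8*, *Stard6* and *Acot11* averaged under 5 and were not candidates.

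**Figure D4:**
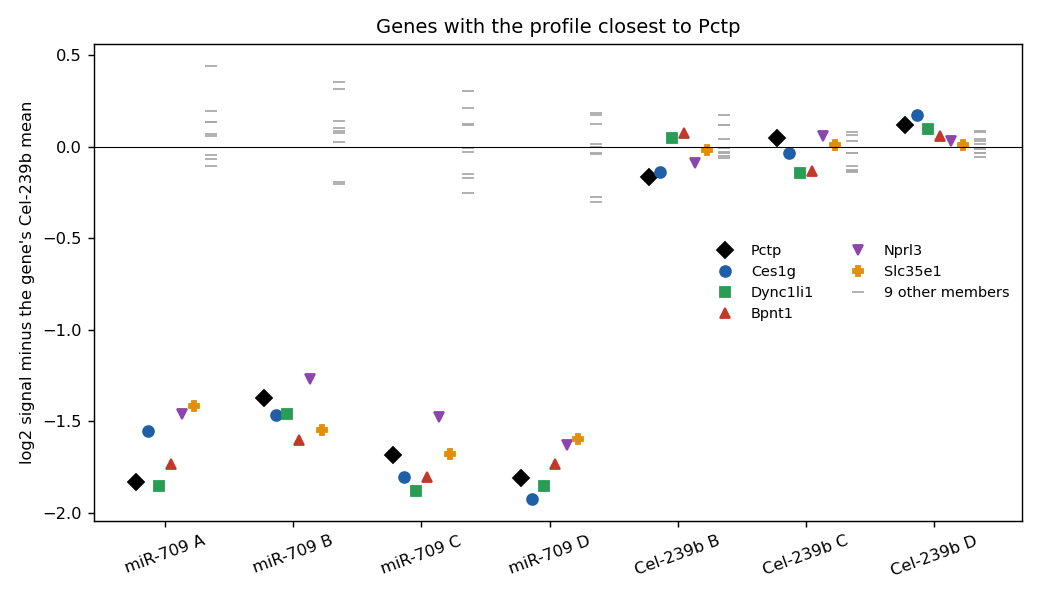
Log2 signal of *Pctp* (black diamonds) and of the 5 genes with the closest profile on each array, relative to the Cel-239b mean of the gene, with the other 9 START members as grey bars. On the 4 miR-709 arrays the 6 named genes lie more than 1 log2 unit below their Cel-239b mean, while the 9 members stay near 0.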

How the data were processed

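The deposited table holds log2 signals for each probe set, which the authors made with RMA in Partek according to the sample records (versions not given in the sources used here), for 28853 probe sets on 7 arrays, rounded to 2 decimals. The arrays ran from 1.92 to 14.08 with medians of 5.04 to 5.07, and no pair of arrays held identical values. The raw scans were not used here, so the probe summary could not be varied. The number of arrays limits the precision: log2 differences had a standard error of 0.08 in the median gene.

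Probe sets were named from the platform annotation, with symbols updated by gene number in RefSeq GRCm38.p6 (21698 matched). Of all probe sets 21789 had 1 symbol, 1621 several and 5443 none. For a gene with several, the one with the highest mean was used, which gave 19938 genes. Treatments were compared with limma 3.58.1 in R 4.3.3 (lmFit, eBayes, 2-sided, Benjamini-Hochberg over all genes), a moderated form of the 1-way analysis of variance in the methods, itself called the methods' t-test here, and the script was tested on simulated data.

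The 10 members, the related lists and the tests were chosen with earlier results of these data known. Named were all members, the other 5 START genes, up to 3 genes of each related list with the largest difference, called ones first, and the 5 genes closest in profile to *Pctp*. One further list is not reported here. *Acot13* and *Pemt* were named for their role after their values were seen. Alternatives were the methods' t-test, limma-trend, every probe set, or averaged probe sets, filters on dim genes, other scalings, array weights, replicate blocks and left-out arrays. Leaving out miR-709 replicates C and D together was added after seeing the data.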

Additional observations from a re-analysis of the deposited data

Results flagged for a closer look

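Of 48 genes checked in the 4 miR-709 arrays, 2 had an array far from the others, which chance gives for about 1 group in 20. *Stard6* read 3.21 on replicate D, with the next array at 3.14. *Vdac1*, a channel of the outer mitochondrial membrane, read 10.31 on replicate A, with the other arrays at 10.29, a step of 0.02 in values rounded to 2 decimals.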

How the results depend on the processing

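The difference of *Pctp* ran from -1.78 to -1.60 over 20 alternatives. No alternative called a START member lower or a START gene outside the 10. None called a gene of the 7 other lipid transfer families lower or a gene listed for mitochondrial sterol handling. START members called higher were 1 (*Acot12*) with limma-trend and with filters that kept genes averaging 5 or 6 and more, and 0 otherwise. Lipid transfer genes called higher, 2 in the report, were 4 with limma-trend and with either filter. They were 3 after further quantile normalization, with array weights, with the fixed replicate block and without miR-709 replicate C or Cel-239b replicate D. They were 1 without miR-709 replicates C and D. Over all probe sets the count was 3, but it counts probe sets, of which a gene can have several. Phosphatidylcholine genes called, 2 in the report, were 0 with the methods' t-test and without miR-709 replicates C and D, and 1 to 2 without single arrays. SREBP2 targets called, 1 in the report, were 2 with the filter at 6 and 2, again counted as probe sets, over all probe sets. They were 0 with the methods' t-test, with array weights, without miR-709 replicates C and D and without each single array. Thioesterases called were 0 without miR-709 replicates C and D. The fit without replicates C and D rests on 2 arrays against 3. With the replicate letter as a fixed block, phosphatidylcholine genes called were 1, and all genes called fell to 221 lower and 180 higher, against 293 and 361 without it. Letter A has no Cel-239b array, so this block in effect leaves miR-709 replicate A out of the differences. That of *Pctp* was -1.62 in both fits. Arrays of the same letter shared little (correlation of their deviations 0.02, 0.02 and 0.05), so the letters were not taken as pairs. Over all genes, cyclic loess called 328 lower and 324 higher, and the methods' t-test 113 lower and 113 higher. Leaving out single arrays gave 181 to 244 lower and 180 to 294 higher, with the fewest without Cel-239b replicate C, and leaving out miR-709 replicates C and D together gave 92 lower and 76 higher. Probe sets near the bottom of the scale, such as those of *Star*, *Stard8* and *Stard6*, limit what can be seen of those genes. Causes of these changes were not tested.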
